A study of Mus musculus with 16 samples.

Results

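The mitochondrial ribosomal proteins are the 77 protein-coding genes of the count table whose symbol is Mrps or Mrpl followed by a number and, in some, a letter from a to c. Of these, 29 carry a small-subunit symbol (Mrps) and 48 a large-subunit symbol (Mrpl), out of 21640 genes in all. No expression value entered this choice. Thyroids of male wild-type (WT) mice of the inbred strain C57Bl/6J were sequenced as bulk poly(A) RNA, with 1 library per mouse and 4 mice in each of 4 groups. All mice entered the diets at 8 weeks of age. The HF+SD groups received high-fat food and sucrose water, the CD groups received chow, and thyroids were taken after 3 weeks (3W) or 6 weeks (6W). No mouse carried a transgene or an added agent, and nothing in the labels ties a mouse of one diet to a mouse of the other. All 4 labelled CD mice of 6W were used here. For both its differential expression and its gene set analysis of the later time point, the study gives fewer CD mice than the labels do. It does not name the mouse left out.

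Mitochondria hold their own ribosome, which translates the few messages of mitochondrial DNA, all of them for subunits of the respiratory chain and the ATP synthase. Its RNAs are made from mitochondrial DNA, whereas its proteins are made from nuclear genes in the cytosol and imported. The small subunit reads the message and the large subunit joins the amino acids. Tissues rich in mitochondria, such as skeletal muscle and brown fat, hold much of this machinery, and the thyroid needs mitochondrial ATP to take up iodide and to make and resorb thyroglobulin.

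The promoters of a few members are shown because most members were lower on HF+SD at 6W when all 4 CD libraries were used. Their median log2 fold change of -0.39 was -0.12 and -0.07 in the 2 fits that considered muscle RNA, described below. The factors NRF1 and the ETS protein GABP are textbook regulators of nuclear genes for mitochondria. A part of these factors in the 6W values was not tested. Windows of 250 bases before a RefSeq start (GRCm38.p6) were matched for 68 of the 77 members. The NRF1 letters (GCGC, any base, then TGCGC) were in the windows of 10 of 68 members (14.7%) and in 4.23% of 27025 genes. The ETS letters CCGGAAGT were also in 10 of 68 members (14.7%) and in 3.23% of genes. The SP1 letters GGGGCGGGG were in 13 members (19.1%) against 11.8% of genes, and the letters TATAAA were in 5 members (7.35%) against 14.3% of genes. Of the 16 members with a window that fell at 6W, 2 held the NRF1 letters and 2 the ETS letters, a share no higher than that of all members. The windows of members had a median GC content of 58.4%, compared with 52.4% over all windows. A match of letters is a description of the sequence and not a measured binding site. No match says only that these letters are not in the window. All letters were read on both strands. In the sequences shown, capitals mark the letters of a match, and no window shown holds more than 1 match. Mrpl30 (chr1:37890227-37890476, plus strand, an NRF1 match) and Mrps26 (chr2:130563507-130563756, plus strand, an ETS match) fell at 6W, as did Mrpl42 (chr10:95501950-95502199, minus strand, no match). Mrps6 (chr16:92058086-92058335, plus strand, an SP1 match) rose at 6W, and Mrpl27 (chr11:94653541-94653790, plus strand, an ETS match) rose at 3W.
Mrpl30: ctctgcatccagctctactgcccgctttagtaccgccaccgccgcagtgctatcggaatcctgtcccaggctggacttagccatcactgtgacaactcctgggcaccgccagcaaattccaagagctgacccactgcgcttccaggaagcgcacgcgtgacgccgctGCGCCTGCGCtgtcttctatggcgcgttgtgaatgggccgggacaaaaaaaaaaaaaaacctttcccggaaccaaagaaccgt
Mrps26: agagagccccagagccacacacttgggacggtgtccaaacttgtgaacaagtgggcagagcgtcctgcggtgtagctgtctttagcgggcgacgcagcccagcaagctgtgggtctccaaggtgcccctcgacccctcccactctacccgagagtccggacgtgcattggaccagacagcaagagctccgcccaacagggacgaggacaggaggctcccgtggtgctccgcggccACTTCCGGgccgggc
Mrpl42: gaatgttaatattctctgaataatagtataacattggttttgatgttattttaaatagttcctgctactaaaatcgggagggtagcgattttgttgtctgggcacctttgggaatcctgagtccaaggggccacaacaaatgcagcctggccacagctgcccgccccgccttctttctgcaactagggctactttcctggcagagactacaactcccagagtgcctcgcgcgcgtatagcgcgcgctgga
Mrps6: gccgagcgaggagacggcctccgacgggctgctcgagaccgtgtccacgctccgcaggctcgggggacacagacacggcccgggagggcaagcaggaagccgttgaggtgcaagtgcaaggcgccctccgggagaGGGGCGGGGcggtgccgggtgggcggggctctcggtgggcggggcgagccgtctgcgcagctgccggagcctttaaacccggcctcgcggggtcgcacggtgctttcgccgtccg
Mrpl27: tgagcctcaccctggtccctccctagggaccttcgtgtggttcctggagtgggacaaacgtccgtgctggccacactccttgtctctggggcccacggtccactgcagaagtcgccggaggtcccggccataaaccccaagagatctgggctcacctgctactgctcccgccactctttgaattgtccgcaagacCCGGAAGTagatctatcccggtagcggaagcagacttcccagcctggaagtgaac

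The libraries held 30025256 to 48508653 counts, and each member had between 156 and 8793 counts in every library. The thyroid label was checked with 12 thyrocyte genes, of which 11 had at least 10 counts in each library of both times. Thyroglobulin (Tg) alone took 26.8% to 29.7% of counts in the CD mice of 3W and 4.73% to 11.3% in those of 6W. The 6W control libraries differed among themselves in skeletal muscle RNA. A list of 36 muscle genes, led by actin, myosin, troponin and creatine kinase genes, took 4.05% of the counts of mouse M43, 17.2% of M45 and 12.3% of M48, but 0.117% of M22. In the 4 HF+SD mice of 6W it took 0.144% to 0.483%. At 3W it took 0.0136% to 0.0202% in the CD mice and 0.0231% to 0.0270% in the HF+SD mice, low shares that did not overlap. A list of 8 brown adipocyte genes took 0.0692% to 0.0954% in the CD mice of 6W, M22 included, and 0.00603% to 0.0147% in the HF+SD mice. In addition, parathyroid genes took 1.71% of the counts of M22 and 0.0507% to 0.451% of the other 6W libraries. The prefix of the library names changed with the time point, and no source used here says what it stands for. Levels are therefore compared between diets within a time and not between times. In bulk tissue, fewer cells of a type and less RNA per cell cannot be told apart.

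Levels are given as CPM, a gene's counts relative to library size, with library sizes scaled by TMM, a method that aligns libraries on genes without extreme changes. All 77 members were above 1 CPM in every library, and all passed the filter on low counts. In the CD mice of 6W the mean CPM of a member ran from 11.1 (Mrps18c) to 181 (Mrpl42). In those of 3W it ran from 4.72 (Mrps18c) to 58.6. Per kilobase of the principal transcript, the highest mean levels in CD mice of 6W were 273 CPM per kb for Mrpl42, 196 for Mrps21, 133 for Mrpl52 and 127 for Mrpl30, and the lowest were 5.77 for Mrpl19 and 6.04 for Mrps26. At 3W the order of the highest was Mrpl52 (68.5 CPM per kb), Mrps6 (61.8), Mrps21 (55.8) and Mrpl42 (48.9). By this measure the values differed widely among genes of the same ribosome. They depend on the principal transcript used, such as 418 bases for Mrpl52 and 5000 for Mrpl19, a choice that was not tested. The 6W values also average CD libraries that differ in muscle RNA.

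At 6W, most mitochondrial ribosomal protein genes had lower levels in the HF+SD mice than in the CD mice, when all 4 CD libraries were used. A negative log2 fold change (HF+SD minus CD) was measured for 73 members and a positive value for 4. The median over the members was -0.39, compared with -0.01 over all 18249 genes tested. At an adjusted p under 0.05 by edgeR's quasi-likelihood test, 19 members fell, beside 9.55% of all tested genes that were lower, and 1 member rose, beside 12% of all tested genes that were higher. With a log2 fold change below -1 required as well, 1 member, Mrpl42, was left, where 6.01% of all genes passed. The 4 HF+SD mice lay below all 4 CD mice for 32 members (9.97% of all genes) and above them for 1 (13.8% of all genes). Leaving out 1 mouse gave 2 to 45 calls, with 45 without M22, where 30.8% of all genes were called. There were 5 without M45 (15.6% of all genes), 4 without M5 (16%) and 3 without M34 (10.4%). There were 2 without M48 (12.9%), M18 (10.4%) or M35 (12.6%). The small and the large subunit had like medians. The median was -0.37 over 29 small-subunit members, of which 8 fell and 1 rose, and -0.39 over 48 large-subunit members, of which 11 fell. Moving Mrps18a and Mrps30, which sit structurally in the large subunit, gave the same medians to 2 decimals (-0.37 and -0.39).

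The members' levels differed among the CD mice of 6W. Under TMM, the mean log2 CPM over the 77 members was 5.21 in M22, 5.44 in M43, 5.60 in M48 and 5.79 in M45. The shares of muscle genes and of the mitochondrial genome rose in the same order of these 4 libraries, and those of thyrocyte, parathyroid, C cell and endothelial genes fell in it, so these shares cannot be told apart by order. In the HF+SD mice it was 5.19 (M5), 5.16 (M18), 5.13 (M34) and 5.15 (M35), a mean of 5.16 ± 0.0217 (SD, n = 4), compared with 5.51 ± 0.245 in CD (SD, n = 4). The levels of both diets did not overlap, yet M22 lay nearer to the HF+SD mice than to the other CD mice. Among the CD mice, 66 members were lowest in M22, against 28.2% of all genes, and 70 members were highest in M45, against 29.4% of all genes. M22 was above every HF+SD mouse for 36 members, within their range for 26 and below all of them for 15, whereas over all genes the shares were 31.4%, 38.4% and 30.2%. The same count above every HF+SD mouse was 60 members for M43, 67 for M48 and 74 for M45, beside 31.6%, 30.9% and 33.3% of all genes. As a plain share of counts, without TMM, the CD mice did not keep this order. The members took 0.362% of M22, 0.378% of M43, 0.368% of M48 and 0.347% of M45.

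**Figure D1:**
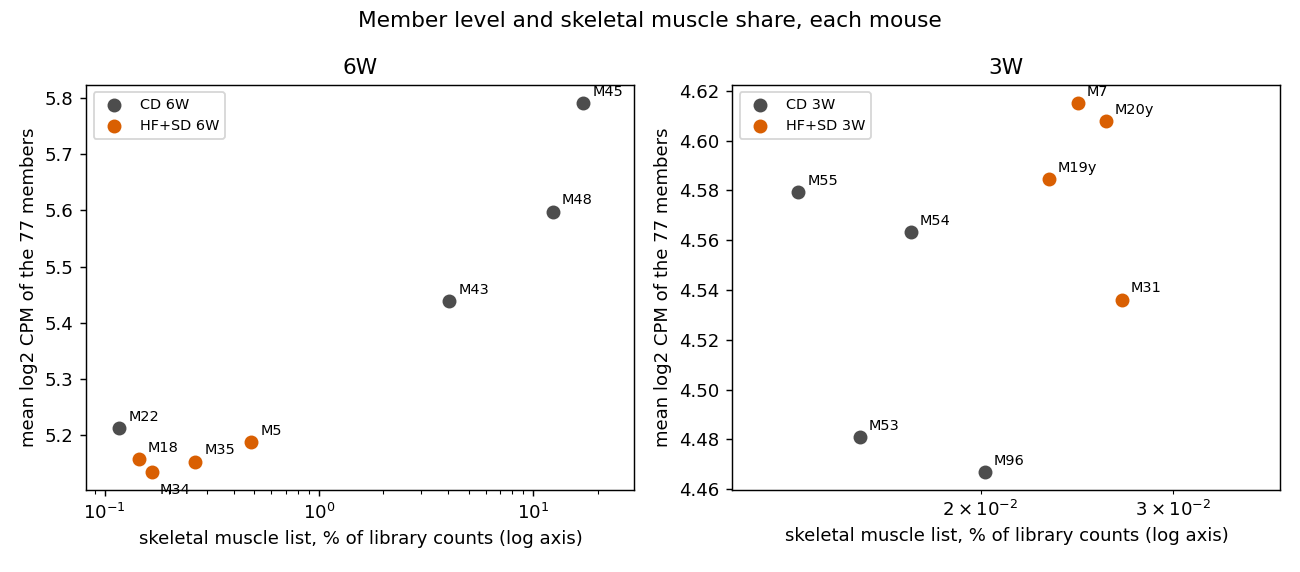
Mean log2 CPM of the 77 members (vertical axis) against the share of library counts on 36 skeletal muscle genes (horizontal log axis, percent), each point a mouse, CD in grey and HF+SD in orange, with 6W on the left and 3W on the right on separate scales. At 6W, under TMM, the 3 CD mice above 4% muscle lie at 5.44 to 5.79. M22, at 0.117% muscle, lies at 5.21, beside the HF+SD mice at 5.13 to 5.19.

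With the mean log2 CPM of the muscle genes as a covariate, the median fold change of the members was -0.12, 59 of 77 values were negative, and 1 member fell, beside 3.86% of all genes that were called lower in that fit. With M22 as the only CD library, for which edgeR takes the spread from the HF+SD mice, the median was -0.07, 47 values were negative and 0 members were called, with 2 lower at an unadjusted p under 0.05. Over all 19628 genes of that fit, 49.4% were negative, 1.95% were called lower, 3.22% were called higher and 9.78% were lower at an unadjusted p under 0.05. Libraries scaled to total counts, a choice made after these values were seen, gave a median of -0.19 with all 4 CD mice, beside 0.15 over all genes. They gave -0.18 with M22 alone, beside -0.11 over all genes. As a plain share of counts, without TMM, the members took 0.362% of M22 and 0.347% to 0.378% of the other CD libraries, and 0.313% to 0.328% in the HF+SD mice. M22 thus lay above every HF+SD mouse on both scales, with a mean log2 CPM under TMM of 5.21 beside 5.13 to 5.19. Which scaling is the better one for these libraries was not tested. The part of muscle RNA in the 6W difference of a single member was not tested beyond these fits.

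**Figure D2:**
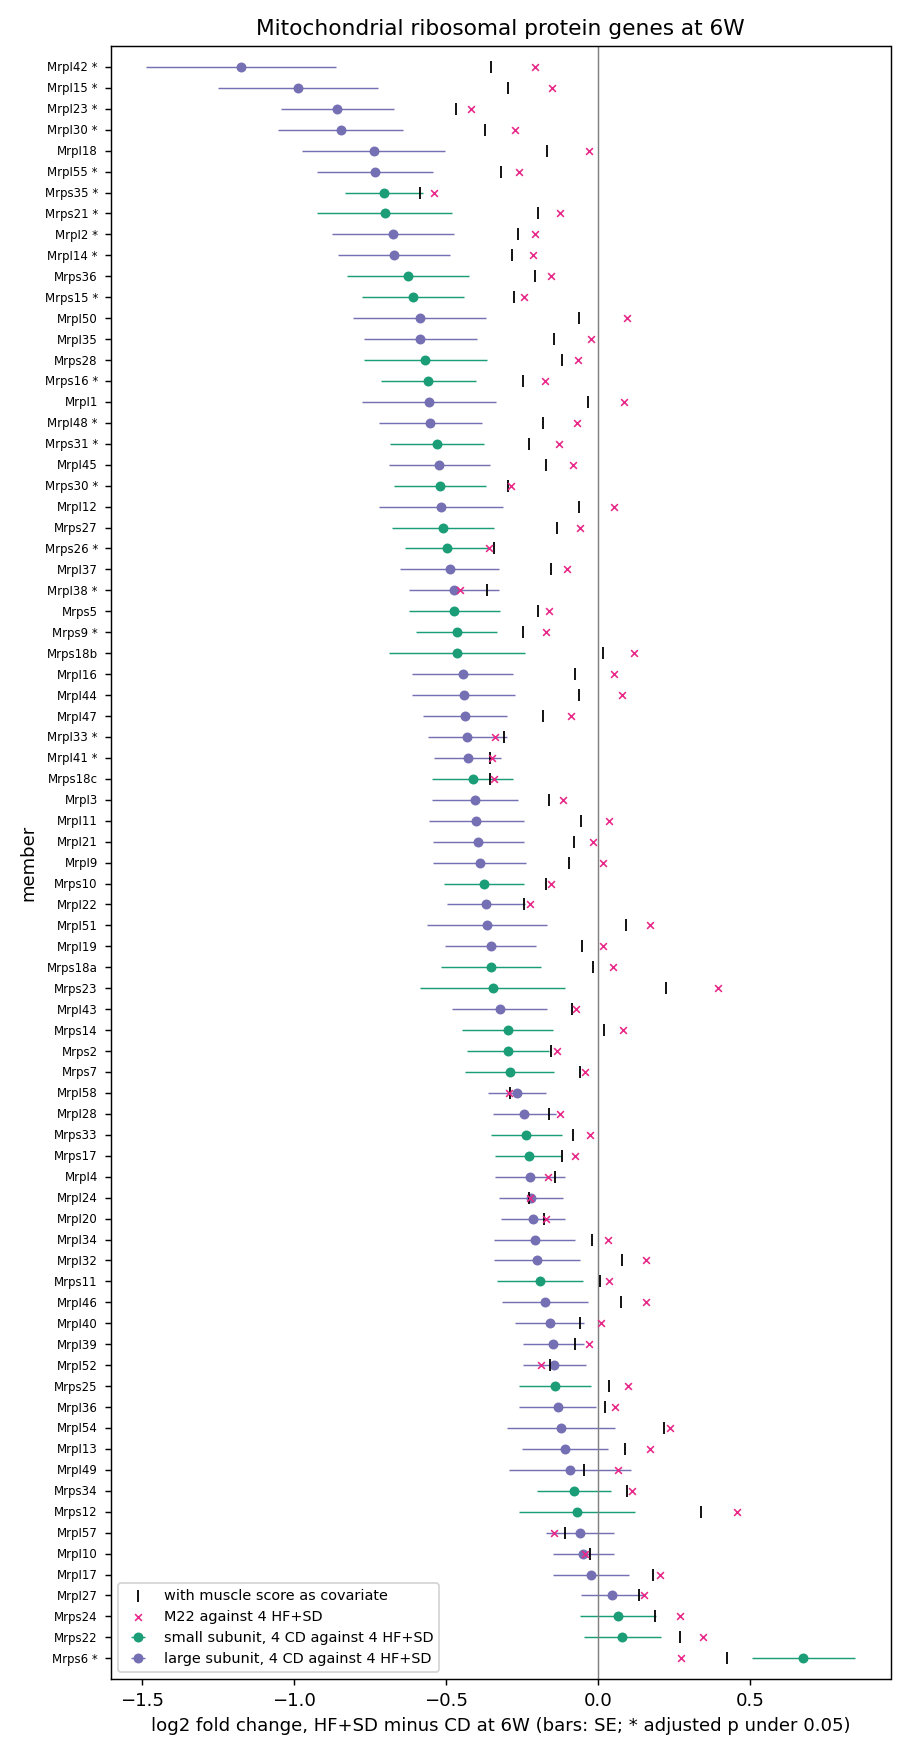
Log2 fold change of each member at 6W (HF+SD minus CD, horizontal axis), ordered by size, as points with SE bars coloured by subunit. Black ticks give the value with muscle as a covariate, pink crosses the value with M22 as the only CD mouse, and asterisks mark an adjusted p under 0.05 in edgeR. Ticks and crosses lie nearer to 0 than the points for most members, and Mrps35 keeps a value of -0.59 with the covariate and -0.54 with M22 alone.

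Among small-subunit proteins, Mrps35, a component found in the mitochondrial but not the bacterial ribosome, had the smallest adjusted p. Its CPM was 29.6 in M22 and 31.4, 35.7 and 36.5 in M43, M45 and M48, and it was 17.8, 22.5, 19.8 and 21.4 in the HF+SD mice M5, M18, M34 and M35. The groups did not overlap, and M22 was above every HF+SD mouse. Mrps35 fell from 33.3 ± 3.34 to 20.4 ± 2.04 CPM (SD, n = 4), a log2 fold change of -0.71 ± 0.13 (SE, adjusted p = 0.00632). It was the member called with the muscle covariate (-0.59, adjusted p = 0.0436), and with M22 alone the value was -0.54 (adjusted p = 0.143). Mrps15, whose bacterial form binds the RNA of the small subunit early in assembly, was 46.7 in M22 and 51.0, 78.0 and 65.4 in M43, M45 and M48, and ran from 37.2 to 41.3 CPM in HF+SD. It fell by 0.61 on the log2 scale (SE 0.17, adjusted p = 0.0316), or by 0.25 with M22 alone (not called). Mrps16, a core protein shared with bacteria, was 38.5 CPM in M22, 46.4 to 61.0 in the other CD mice and 31.1 to 36.0 in HF+SD, and fell by 0.56 on the log2 scale (SE 0.16, adjusted p = 0.0322). Their groups did not overlap, with M22 the nearest CD mouse to the HF+SD range in both. The other small-subunit members that fell were Mrps9, Mrps21, Mrps26, Mrps30 and Mrps31, with log2 fold changes of -0.47 to -0.70.

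Mrps6 was the only member that rose at 6W, and it sits beside the RNA of the small subunit's platform. It measured 69.6 CPM in M22 and 49.9, 40.6 and 51.2 in M43, M45 and M48, and 92.0, 86.8, 73.9 and 84.8 in M5, M18, M34 and M35. The HF+SD values all lay above the CD values, and M22 was the highest of the CD mice. The mean was 52.9 ± 12.1 in CD and 84.4 ± 7.59 in HF+SD (SD, n = 4). The log2 fold change was 0.67 ± 0.17 (SE, adjusted p = 0.0227). When libraries were scaled to thyrocyte genes it was -0.26, where the median of all genes was -0.99. With the muscle covariate it was 0.42 (adjusted p = 0.160), and with M22 alone 0.27 (adjusted p = 0.401). Mrps6 shares exons on the same strand with Slc5a3, a myo-inositol transporter that measured 187 ± 88.6 CPM in CD and 725 ± 388 in HF+SD (log2 fold change 1.96 ± 0.43, SE, adjusted p = 0.0138). No source used here says how shared exons were counted, so the value of Mrps6 is uncertain. At 3W neither gene was called, with a log2 fold change of 0.10 for Mrps6 and -0.07 for Slc5a3.

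Among large-subunit proteins, the member with the largest change was Mrpl42, which has no bacterial counterpart. In the same order, M22 first, its CPM was 92.6, 129, 286 and 219, and it was 78.5, 75.1, 82.7 and 85.2 in HF+SD. The groups did not overlap, and M45 stood 1.63 above M22 on the log2 scale, although both were CD mice. Mrpl42 fell from 181 ± 87.4 to 80.4 ± 4.48 CPM (SD, n = 4), a log2 fold change of -1.17 ± 0.31 (SE, adjusted p = 0.0275). It was -0.35 with the muscle covariate (adjusted p = 0.354) and -0.21 with M22 alone (adjusted p = 0.453). Mrpl30 followed the same order, with 82.6, 107, 172 and 131 CPM in M22, M43, M45 and M48 and 66.2 to 69.9 in HF+SD. It fell by 0.85 on the log2 scale (SE 0.21, adjusted p = 0.0202), or by 0.28 with M22 alone (not called).

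Mrpl23, a protein at the exit of the nascent chain's tunnel, was 38.9, 43.5, 69.2 and 60.3 CPM in that order, and ran from 28.1 to 30.97 CPM in HF+SD. It fell by 0.86 on the log2 scale (SE 0.19, adjusted p = 0.0131), with -0.47 under the muscle covariate (adjusted p = 0.105). Mrpl41 differed little among CD mice, with 29.4 CPM in M22 and 31.9, 33.6 and 30.1 in M43, M45 and M48, all above the 21.99 to 25.2 CPM of the HF+SD mice. It fell by 0.43 on the log2 scale (SE 0.11, adjusted p = 0.0232), and the value was -0.35 both with the covariate (adjusted p = 0.143) and with M22 alone. The other large-subunit members that fell were Mrpl2, Mrpl14, Mrpl15, Mrpl33, Mrpl38, Mrpl48 and Mrpl55, with log2 fold changes of -0.43 to -0.99. Of the 19 members that fell, 18 had groups that did not overlap, and Mrpl38 was the exception. All 19 had M22 above every HF+SD mouse, a side that the selection itself favoured. Their median log2 fold change was -0.61, which became -0.30 with the muscle covariate and -0.25 with M22 alone. Selection on the same mice favoured negative values here too. Over all 77 members these medians were -0.12 and -0.07.

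**Figure D3:**
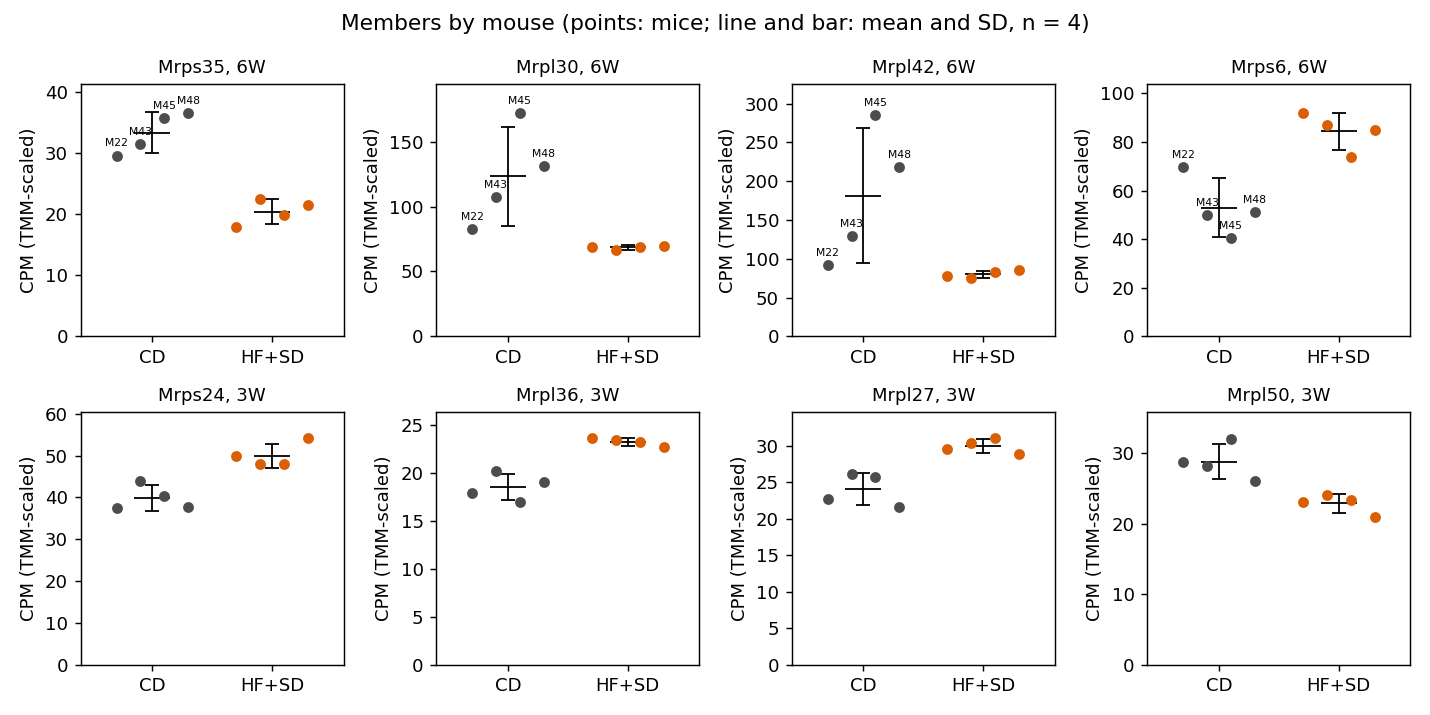
CPM of single members in each mouse (vertical axis from 0), with CD in grey and HF+SD in orange, line and bar giving mean and SD (n = 4). The top row shows Mrps35, Mrpl30, Mrpl42 and Mrps6 at 6W with the CD mice labelled, and the bottom row Mrps24, Mrpl36, Mrpl27 and Mrpl50 at 3W. For Mrpl42 the CD mice span 92.6 to 286 CPM, while for Mrps35 they span 29.6 to 36.5, and both lie above all HF+SD mice.

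Members with a known special place were described whatever their values. Mrpl12, which forms the stalk that recruits translation factors and also binds the mitochondrial RNA polymerase, measured 78.5 ± 23.4 CPM in CD and 54.9 ± 4.66 in HF+SD at 6W (SD, n = 4), a log2 fold change of -0.52 that was not called (adjusted p = 0.0992). Mrpl58, a peptidyl-tRNA hydrolase that was built into the large subunit, was nearly level among the CD mice, at 61.6 to 64.9 CPM, with M22 at 64.1. The HF+SD mice ran from 51.9 to 53.4, so the groups did not overlap. The log2 fold change was -0.27 ± 0.10 (SE, adjusted p = 0.0759), and it was -0.29 both with the muscle covariate and with M22 alone. Mrps12, which lines the decoding centre, differed by -0.07 and was not called, and M22 was its lowest CD mouse with 14.9 CPM against 18.2 to 24.3 in HF+SD.

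The values of the early-assembling and structural members were mixed at 6W. Mrps2 was at -0.30, Mrpl3 at -0.41, Mrpl11 at -0.40, Mrpl44 at -0.44 and Mrps27 at -0.51 on the log2 scale, with adjusted p of 0.0570 to 0.145, while Mrps22 was at 0.08 and Mrps34 at -0.08. The 3 paralogs Mrps18a, Mrps18b and Mrps18c, which take different places in the ribosome, had log2 fold changes of -0.35, -0.46 and -0.41, none called. For Mrps18c the groups nonetheless did not overlap (10.6 to 11.5 CPM in CD and 7.78 to 9.28 in HF+SD, adjusted p = 0.0540). Mrps36, now placed with the 2-oxoglutarate dehydrogenase complex rather than the ribosome, was at -0.63 (adjusted p = 0.0523).

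At 3W, where the muscle genes took at most 0.0270% of counts in any mouse, fewer members differed between diets. These muscle shares were low but higher on HF+SD (0.0231% to 0.0270%) than in CD (0.0136% to 0.0202%). The log2 fold change was positive for 51 members and negative for 26, with a median of 0.07, compared with -0.01 over all 17238 genes tested, and the median turned to -0.55 when libraries were scaled to thyrocyte genes, where all genes moved to -0.63. By edgeR, 4 members rose, beside 9.07% of all genes that were higher, and 1 member fell, beside 5.78% that were lower. The groups did not overlap with HF+SD higher for 12 members (13.1% of all genes) and with HF+SD lower for 3 members (10.5% of all genes). The share of members called was below that of all genes in both directions. With the muscle covariate 60 members were positive at 3W, with a median of 0.11, beside 0.002 over all genes. In that fit 3 members rose (6.62% of all genes) and 1 fell (3.7% of all genes). Leaving out 1 mouse gave 0 to 11 calls. There were 0 without M53 (10.8% of all genes), M7 (10%), M20y (8.27%) or M31 (8.48%). There were 1 without M19y (9.41%), 2 without M96 (11%) and 11 without M55 (19.4%). The medians of the small and the large subunit were both 0.07. The mean log2 CPM over the members was 4.48, 4.56, 4.58 and 4.47 in the CD mice M53, M54, M55 and M96, and 4.61, 4.58, 4.61 and 4.54 in the HF+SD mice M7, M19y, M20y and M31. Those ranges overlapped.

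Mrps24, the mitochondrial form of the protein at the entry of the message, was 37.5, 44.1, 40.4 and 37.6 CPM in M53, M54, M55 and M96, and 49.8, 47.9, 47.9 and 54.1 in M7, M19y, M20y and M31. All HF+SD mice were above all CD mice. It rose by 0.32 ± 0.08 on the log2 scale (SE, adjusted p = 0.0240). Mrpl36, a short protein of the large subunit shared with bacteria, measured 18.5 ± 1.38 CPM in CD and 23.2 ± 0.393 in HF+SD (SD, n = 4) and rose by 0.33 (SE 0.08, adjusted p = 0.0230). Mrpl27, which lies near the site of peptide bond formation, measured 24.0 ± 2.22 and 29.9 ± 0.938 CPM (SD, n = 4) and rose by 0.32 (SE 0.08, adjusted p = 0.0320). Mrpl10, which anchors the stalk of Mrpl12, measured 37.7 ± 1.67 and 44.0 ± 0.786 CPM (SD, n = 4) and rose by 0.22 (SE 0.06, adjusted p = 0.0448). When libraries were scaled to thyrocyte genes, these 4 values turned to -0.28, -0.28, -0.30 and -0.39, where the median of all genes was -0.63.

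Mrpl50, a protein of the mitochondrial large subunit with no bacterial counterpart, was the member that fell at 3W. Its CPM was 28.8, 28.2, 32.0 and 26.0 in M53, M54, M55 and M96, and 23.1, 24.1, 23.4 and 21.0 in M7, M19y, M20y and M31. The groups did not overlap. The log2 fold change was -0.33 ± 0.09 (SE, adjusted p = 0.0313), and at 6W it was -0.59 (adjusted p = 0.0838), with M22 and the HF+SD mice overlapping. The lowest small-subunit value at 3W was -0.28 for Mrps18b (adjusted p = 0.305). The largest positive value of the small subunit was 0.34 for Mrps22 (adjusted p = 0.0736), and that of the large subunit 0.33 for Mrpl34 (adjusted p = 0.0537), both with overlapping groups. Mrpl36 shares exons with Ndufs6 and Mrpl27 with Eme1, both on the opposite strand, and Mrps24 shares exons with Urgcp on its own strand. Of the 77 members, 32 share exons with another annotated gene, and no source used here says whether counting used the strand, so these values are uncertain. Urgcp itself had a log2 fold change of -0.11 at 3W and Ndufs6 0.01. Eme1, at a level far below that of Mrpl27 (0.133 ± 0.0919 CPM in CD and 0.581 ± 0.0459 in HF+SD, SD, n = 4), rose by 2.09 on the log2 scale (SE 0.41, adjusted p = 0.00882), the direction of Mrpl27.

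The 2 times were also compared directly, with the 6W fold change minus the 3W fold change of each member. The difference was negative for 75 of 77 members, with a median of -0.48, beside -0.05 over all 18929 genes tested. edgeR called 0 members, beside 0.0792% of all genes, while 58 members were negative at an unadjusted p under 0.05, beside 12.9% of all genes. Without M22 edgeR called 42 members, all negative, beside 8.57% of all genes. Without M43 it called 23, all negative, beside 4.24% of all genes. These are the CD libraries of 6W with the least muscle RNA. Leaving out any other mouse, edgeR called 0 members, beside at most 0.273% of all genes. DESeq2 called 15 members, all negative, beside 5.09% of all genes. The smallest adjusted p in edgeR was that of Mrps35 (-0.85 ± 0.17, SE, adjusted p = 0.0512), which was 0.00124 in DESeq2. Of the 19 members that fell at 6W, 11 had a negative and 8 a positive value at 3W, and 0 were called there. Across the 77 members, the log2 fold changes of the 2 times had a Spearman rho of 0.37, a description over genes that are not independent, from separate mice. With muscle as a covariate the difference was negative for 67 members, with a median of -0.20, beside -0.04 over all genes. In that fit 0 members and 0% of all genes were called. Mrps24, Mrpl27 and Mrps22, at 0.32 to 0.34 at 3W, were also 3 of the 4 positive members at 6W. Their 6W values were only 0.06, 0.05 and 0.08, with overlapping groups and no call. Mrps22 was not called at 3W either.

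**Figure D4:**
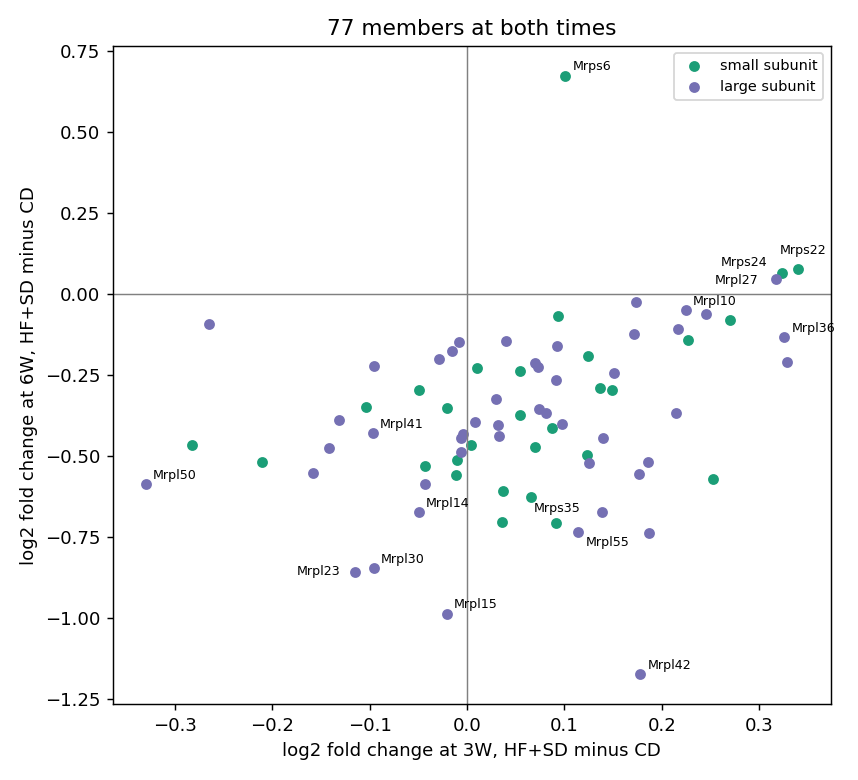
Log2 fold change of each of the 77 members at 3W (horizontal axis) and 6W (vertical axis), HF+SD minus CD, coloured by subunit, with lines at 0. Most points lie below the horizontal line, at a median of -0.39, and on both sides of the vertical line, at a median of 0.07. When libraries are scaled to thyrocyte genes, all 77 members are negative at both times, as are 91.6% of all genes at 6W and 90% at 3W.

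Genes that work with these proteins were described from lists chosen by function. Beside them, 9.55% of all tested genes were called lower and 12% higher at 6W. At 3W 5.78% were called lower and 9.07% higher. All 5 further mitoribosomal proteins with other symbols had negative values at 6W (median -0.48), and 3 of them fell, namely Ptcd3 (-0.70, adjusted p = 0.0216), Aurkaip1 (-0.39, adjusted p = 0.0314) and Chchd1 (-0.72, adjusted p = 0.0353). With the muscle covariate the median was -0.24 and 0 were called, and at 3W 0 of 5 were called (median 0.04). Of 28 genes for making the ribosome, 23 had negative values at 6W (median -0.28). Of these, 4 fell, among them Malsu1, which keeps the large subunit from joining the small one too early (-0.78, adjusted p = 0.0141), Mrm3, which methylates its RNA (-1.04, adjusted p = 0.0153), and Mettl17 (-0.52, adjusted p = 0.0173). Mettl17 was still called with the muscle covariate (-0.59, adjusted p = 0.0371), beside 3.86% of all genes that were lower in that fit. Mpv17l2 rose (0.51, adjusted p = 0.0381).

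Other parts of mitochondrial translation were described in the same way. Of all tested genes, 9.55% fell at 6W and 9.07% rose at 3W. Of 13 translation factors, 11 had negative values at 6W (median -0.33) and 0 were called, while at 3W Tsfm, the exchange factor of the elongation factor Tufm, rose (0.44, adjusted p = 0.0225) and 10 of 13 values were positive. Of 20 aminoacyl-tRNA synthetases and related enzymes, which charge mitochondrial tRNAs, 2 fell at 6W (Gatc and Tars2, median of the list -0.06). That share was near the 9.55% of all genes. At 3W 15 of these 20 were positive and 4 rose, with Nars2 (0.45, adjusted p = 0.0113), Qrsl1 (0.58, adjusted p = 0.0127) and Lars2 (0.66, adjusted p = 0.0291) having the smallest adjusted p. Of 11 genes for transcribing and copying mitochondrial DNA, 2 fell at 6W (Slirp, -0.47, adjusted p = 0.0217, and Ssbp1, -0.36, adjusted p = 0.0460), and 0 were called at 3W. The ribosomal RNA of the small subunit, mt-Rnr1, had a log2 fold change of -1.17 at 6W (adjusted p = 0.0319) and -0.34 with the muscle covariate (adjusted p = 0.317), although poly(A) selection measures only part of this RNA. Of 12 genes of the mitochondrial genome tested at 6W, 11 had negative values (median -0.68), and mt-Rnr1 was the only one called. The median of this list was 0.40 with the muscle covariate and 0.62 with M22 alone. At 3W 2 of 10 were negative (median 0.29), 0 fell and 4 rose. The smallest adjusted p were those of mt-Cytb (0.40, adjusted p = 0.0107), mt-Nd6 (0.37, adjusted p = 0.0158) and mt-Nd5 (0.47, adjusted p = 0.0158). The whole mitochondrial genome took 5.17% of counts in M22, 8.10% to 11.2% in the other CD mice and 6.54% to 8.88% in HF+SD.

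Lists of other cells moved at 6W beside the members. Of all tested genes, 9.55% fell and 12% rose at 6W, and 5.78% fell and 9.07% rose at 3W. Of 36 muscle genes, 34 were tested and all 34 were lower on HF+SD, 33 of them called (median -5.47). At 3W 27 of them were tested, with 9 negative values and a median of 0.69, and 3 rose. All 7 brown adipocyte genes tested fell (median -2.79), among them Ucp1 (-3.39) and Cidea (-3.15), and 6 still did so with the muscle covariate. At 3W, where 6 of 8 brown adipocyte genes fell (median -1.57), the members had a median of 0.07. Endothelial genes rose at both times, 7 of 7 (medians 1.63 and 0.77), and 5 of 6 white adipocyte genes fell at both times. Of 12 thyrocyte genes 6 rose at each time, and of 4 C cell genes 3 fell at 6W and 2 at 3W. Of the immune genes 1 of 6 rose at 6W, and 0 of 3 parathyroid genes were called at either time by edgeR without a covariate. With the muscle covariate all 3 parathyroid genes fell at 6W (median -2.57, beside -2.07 without it). With M22 as the only CD mouse their median was -3.40. The part of brown fat, blood vessels or parathyroid tissue in the members' values was not tested.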

How the data were processed

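Libraries of poly(A) RNA (NEBNext Ultra II) were sequenced on an Illumina NovaSeq. The submitters' processing notes name Trim Galore 0.6.7, STAR, DESeq2 1.36.0, R 4.1.0 and the mouse build mm39, while no source used here gives the counting tool or its strand setting. The authors deposited raw read counts per gene and a table of counts divided by size factors (unit signal), used only in an alternative.

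The deposited counts were tested between diets within each time by edgeR 4.0.16 (R 4.3.3, TMM, filterByExpr, quasi-likelihood F test) with Benjamini-Hochberg adjustment over all tested genes, called at an adjusted p under 0.05. DESeq2 1.42.0 and limma 3.58.1 gave alternatives. Other alternatives were scalings, filters, a muscle covariate, leaving out mice, 1 fit of 16 libraries and a trend on length and GC content. Scaling to total counts, and leaving muscle genes out of the library size, were chosen after seeing the data. The procedure was tested on simulated data. Groups came from the labels, and each replicate is a mouse. GENCODE M21 named 20841 of 21640 identifiers, and the other 799 were not named.

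The members and gene lists were chosen with earlier results of these data known. Named members are those with the smallest adjusted p, up to 3 per subunit, direction and comparison, the highest and lowest fold change per subunit and time, and members with a known special place. From each other list of mitochondrial translation, up to 3 called genes per direction are named. Promoter windows come from RefSeq on GRCm38.p6, not the build of the counts.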

Additional observations from a re-analysis of the deposited data

Results flagged for a closer look

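In 3 of 124 checks of a value in a group of 4 mice, the highest or lowest mouse stood far from the other 3 by Dixon's test, which chance gives in about 1 of 20 groups. Mrpl44 was 23.3 CPM in the CD mouse M54 at 3W, and 19.4 to 19.8 CPM in the other 3. Mrps18b was 36.4 CPM in the HF+SD mouse M5 at 6W, against 22.7 to 24.0 CPM. Mrps22 was 23.5 CPM in the CD mouse M22 at 6W, the library with little muscle RNA, against 29.3 to 30.5 CPM in the other CD mice. The part of muscle RNA in the last value was not tested.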

How the results depend on the processing

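At 6W 20 members were called with all libraries, beside 21.5% of all tested genes. DESeq2 called 31 (28.3% of all genes), and 1 fit of 16 libraries called 53 (32.7%). Scaling to thyrocyte genes gave 76 (75.1%), and scaling to total counts gave 5 (15.5%). With the muscle covariate 1 was called (10.3%). With an absolute log2 fold change above 1 added, 1 was left, a lower member, beside 6.01% of all genes that were lower. Leaving out 1 mouse gave 2 to 45 calls. The number was 45 without M22 (30.8% of all genes), 20 without M43 (20.5%), 5 without M45 (15.6%) and 4 without M5 (16%). It was 3 without M34 (10.4%), and 2 without M48 (12.9%), M18 (10.4%) or M35 (12.6%). The 6W median of -0.39 became -1.41 (thyrocyte genes), -0.19 (total counts), -0.12 (muscle covariate), and with M22 alone -0.065 under TMM and -0.18 under total counts.

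At 3W the 5 calls (14.9% of all genes) became 8 by DESeq2 (21.5%) or upper-quartile factors (15.4%). They became 71 when scaled to thyrocyte genes (66.2%) and 3 when scaled to total counts (14.9%). The fit of 16 libraries called 1 (7.5%). With the fold minimum 0 were left, beside 561 genes higher and 242 lower of 17238. Leaving out 1 mouse gave 0 to 11, with 11 without M55 (19.4% of all genes). It was 0 without M53 (10.8%), M7 (10%), M20y (8.27%) or M31 (8.48%). The 3W median of 0.07 was -0.55 with thyrocyte genes and 0.017 after a trend on length and GC content was subtracted. Between times, the 0 calls (0.0792% of all genes) became 15 by DESeq2 (9.46%). With 1 mouse left out there were 42 without M22 (14.1%), 23 without M43 (6.7%) and 0 without any other mouse.

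Scaling to thyrocyte genes moved the median of all genes to -0.99 at 6W and -0.63 at 3W. In that scaling Mrps6 (-0.26), Mrpl27 (-0.96) and Mrps22 (-0.93) turned negative at 6W. At 3W Mrps24 (-0.28), Mrpl36 (-0.28), Mrpl27 (-0.30) and Mrpl10 (-0.39) did so. Each of these values lay above the median of all genes in its fit. Of the 9 scaling genes, 4 themselves rose at 6W and 3 at 3W under TMM. With this scaling 91.6% of all genes were negative at 6W and 90% at 3W. The cause of this shift was not tested. No paired analysis was possible because the groups share no mouse numbers. Each member had at least 156 counts in each library. At 6W only 1 of 4 CD libraries was low in muscle RNA, and with it alone the spread of CD mice is assumed to be that of the HF+SD mice. The smallest p that an exact test of 4 against 4 mice can give is 0.0286.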
